A study of Mus musculus with 4 samples.

Results

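The genes described are 7 subunits of the GABA-A receptor, Gabra2, Gabra3, Gabra4, Gabra5, Gabrb1, Gabrb2 and Gabrd, chosen by name. They are 7 of the 19465 genes in the deposited table and 7 of its 19 GABA-A subunit genes. All 7 had a mean above 10 counts per 1000000 counts (CPM) over the sections, the minimum used for the comparisons, which 10144 genes passed. The sections came from 4 mice, 2 wild type and 2 heterozygous for Celsr3, which encodes an adhesion receptor of the cadherin family. The labels name no treatment and give no age. Formalin-fixed, paraffin-embedded brains had been trimmed so that coronal sections showed the striatum, and Visium CytAssist counted gene probes on a grid of barcoded spots, each a small region that can hold several cells.

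GABA-A receptors are chloride channels that open when GABA binds, and most combine alpha and beta subunits with a gamma or a delta subunit. The alpha subunit sets how a receptor responds to GABA and to drugs such as benzodiazepines. Receptors with the delta subunit, often partnered by the alpha subunit that Gabra4 encodes, lie mostly outside synapses and carry tonic inhibition, and in the forebrain they are known from thalamic relay neurons, striatal projection neurons and dentate granule cells. Receptors built on the product of Gabra5 are also mostly extrasynaptic and are best known from hippocampus and deep cortex.

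The members lie on 5 chromosomes. Gabra2, Gabra4 and Gabrb1 are on chromosome 5, Gabra3 is on X, Gabra5 on 7, Gabrb2 on 11 and Gabrd on 4. RefSeq promoter entries (GRCm38.p6) matched 6 of the 7 by symbol, and Gabrd was the exception. The 250 bases before the start, or the first of several starts listed, are printed for 3 alpha subunit genes that the results turn on: Gabra4, high in the striatal and thalamic areas, and Gabra3 and Gabra5, both higher in a striatal cluster led by Pdyn and Wfs1 than in the rest of the striatal area. Each lies on the minus strand and is written 5′ to 3′ in the direction of the gene. Capitals mark matches on either strand to the GC box (GGGCGG), the TATA box (TATAAA), the cyclic AMP response element (TGACGTCA), the E-box (CACGTG) or the CCAAT box (CCAAT).
Gabra4, chr5:71658309-71658558: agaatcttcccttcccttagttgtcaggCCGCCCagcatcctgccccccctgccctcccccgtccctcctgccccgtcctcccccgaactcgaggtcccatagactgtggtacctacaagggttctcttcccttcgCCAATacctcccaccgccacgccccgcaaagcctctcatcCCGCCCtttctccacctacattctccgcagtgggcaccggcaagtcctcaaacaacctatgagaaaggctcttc
Gabra3, chrX:72656920-72657169: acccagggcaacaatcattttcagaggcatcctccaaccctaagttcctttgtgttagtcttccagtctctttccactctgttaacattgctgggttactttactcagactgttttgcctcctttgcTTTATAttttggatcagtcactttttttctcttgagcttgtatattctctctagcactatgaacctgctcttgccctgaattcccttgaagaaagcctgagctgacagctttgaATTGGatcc
Gabra5, chr7:57510060-57510309: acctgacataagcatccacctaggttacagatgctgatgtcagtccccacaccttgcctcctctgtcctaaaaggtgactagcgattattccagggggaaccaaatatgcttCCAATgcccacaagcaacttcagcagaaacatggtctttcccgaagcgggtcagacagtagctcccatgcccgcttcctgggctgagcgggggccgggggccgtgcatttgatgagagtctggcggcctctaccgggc

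The Gabra4 window held 2 GC boxes and 1 CCAAT box, the Gabra3 window 1 TATA box and 1 CCAAT box, and the Gabra5 window 1 CCAAT box. Of all 32851 windows of that length in the table, 32.7% held a GC box, 33.8% a CCAAT box, 12.4% a TATA box, 6.02% the E-box and 1.55% the cyclic AMP response element. The motifs do not overlap one another in these windows. Base composition set the windows apart: GC content was 61.2% for Gabra4, 56.4% for Gabra5 and 42.4% for Gabra3, with 12, 9 and 0 CpG dinucleotides, against medians of 52.4% and 6 over all windows. A match is a string of letters, and no binding was measured.

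The spots carry 4 barcode endings, called sets 1 to 4 here, and 0 of them could be tied to a mouse by the labels. No wild-type set is therefore known from a heterozygous one, no genotype comparison was made, and the sets are not treated as replicates: values are given for each set in the order 1 to 4, with no SD and no test. The sets held 3055, 2808, 3444 and 3294 spots after a minimum of 500 counts, which removed 1 spot, and 174761560, 109663162, 165185177 and 90752475 counts. Set 4 had the fewest counts per spot (median 26445) and set 1 the most (52481). Of 4744 different barcodes, which mark positions on the grid, 1613 occurred in all 4 sets. The chi-square of gene counts between pairs of sets was 87.1 to 488 per degree of freedom, so no pair agreed within sampling noise. Intervals are exact 95% intervals that cover counting error only.

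Areas are clusters of spots named from marker genes, with every GABA-A subunit gene kept out of the clustering. Of 27 clusters, 25 fell into 12 areas and 2 stayed unnamed. The areas are called striatal, upper cortical (layers 2 to 4), layer 5, layer 6, claustrum-piriform, basal forebrain, hypothalamic, thalamic, white matter, ventricle lining, choroid plexus and meningeal after the marker list that leads them. Not every area was measured in every set, and an area left out of a set need not be missing from its section. Set 4 had 2 spots named layer 5 beside 554 named upper cortical, and sets 1 and 2 had 25 and 27 ventricle lining spots. With the minimum of 30 spots in a set, the thalamic area was measured in sets 1 and 4 (149 and 298 spots), the layer 5 area in sets 1 to 3 and the ventricle lining area in sets 3 and 4. The basal forebrain area had 38 spots in set 2 against 356 to 400 in the others. Some clusters also came almost wholly from 1 set: a striatal and a hypothalamic cluster from set 2, and an upper cortical, a layer 6 and a striatal cluster from set 4. Each area's own marker list was checked in each set. It summed to 1.78 times the level of all other spots or more in 42 of 43 cases, and the exception was the choroid plexus area in set 2. Its 37 spots held 307 CPM of the 10 choroid plexus markers, against 263 CPM in all other spots of set 2 and 69794 to 164551 CPM in choroid plexus spots of the other sets, so these spots go against the name, and choroid plexus results are given with and without them. A striatal cluster of 108 spots was led by Ccn2 and Cplx3, layer 6b genes, and a basal forebrain cluster of 501 spots scored higher on the oligodendrocyte list. The calls in the striatal and basal forebrain areas given further on were the same with the respective cluster left out of its area. Calls in other areas could not change, because these spots stayed among all other spots. In spots, fewer cells of a type and less RNA per cell cannot be told apart, and counts of different genes depend on their probes, so levels are compared between areas and not between genes.

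The subunits did not follow a common map. A gene was called higher or lower in an area when its CPM there was at least 1.5-fold above or below that of all other spots in every set with at least 30 spots of the area. Of 84 pairs of a member and an area, 8 were higher and 17 lower. In the striatal area Gabra4 and Gabrd were higher, 2 of 7 against 5.38% of all genes, and Gabra3 was lower, 1 of 7 against 9.45%. The thalamic area had 3 of 7 higher (Gabra4, Gabra5 and Gabrb1) against 5.39% of all genes, and none lower, against 9.87%. In the hypothalamic area Gabrb1 was higher, against 5.63% of all genes, while Gabra4 and Gabrd were lower, against 6.89%. Both were also lower in the basal forebrain area, 2 of 7 against 6.7% of all genes, and none was higher there, against 3.49%. These 2 basal forebrain calls were lost with spots assigned by marker score (Gabra4 0.43 to 0.89, Gabrd 0.30 to 0.84). Gabra5 was also higher in the layer 5 area (2.92% of all genes) and in the layer 6 area (2.83%), where Gabra2 was lower (6.9%). No member was lower in the layer 5 area, against 7.3% of all genes. None of the 7 was called in the upper cortical, claustrum-piriform or meningeal area, where 3.71%, 1.92% and 5.54% of all genes were higher and 7.94%, 6.35% and 3.58% lower.

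**Figure D1:**
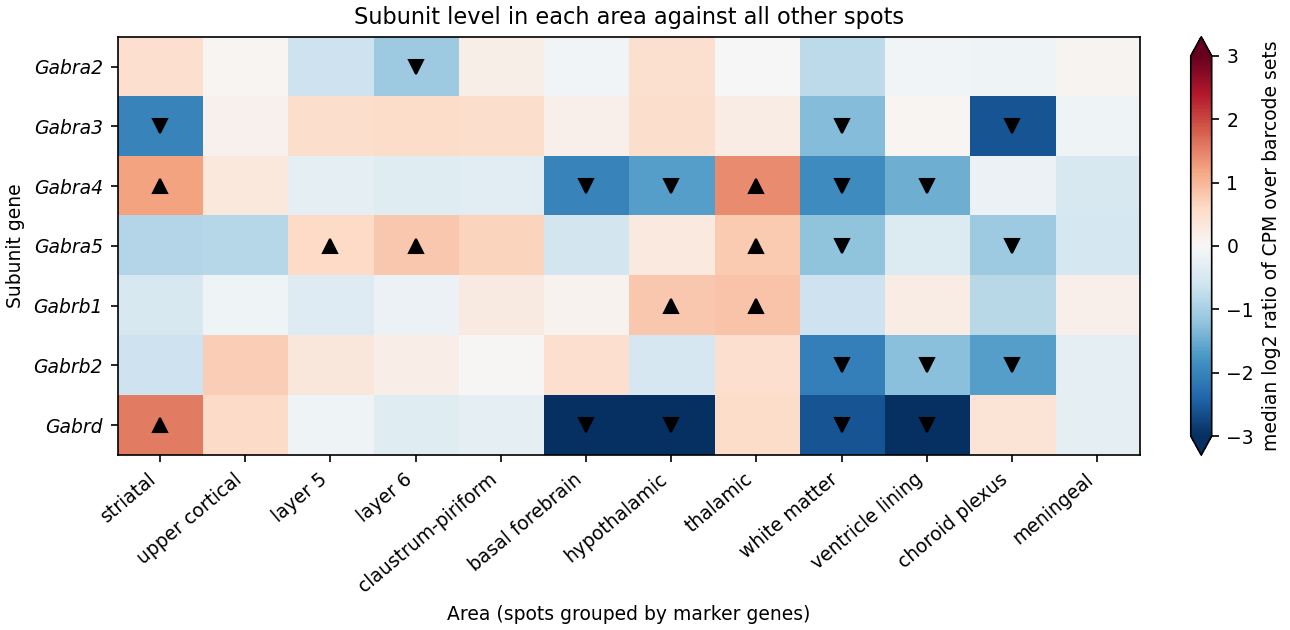
Median over barcode sets of the log2 ratio of CPM in an area to CPM in all other spots, for 7 subunit genes and 12 areas, with colours held at 3 on either side. Triangles mark the 8 pairs called higher (pointing up) and the 17 called lower (pointing down): Gabrd and Gabra4 are high in the striatal area and low in the hypothalamic and basal forebrain areas, and Gabra5 is high in the layer 5, layer 6 and thalamic areas.

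Gabra2 encodes an alpha subunit of synaptic receptors, common in forebrain and at the axon initial segment. It was the most evenly spread member, with medians over sets from 162 CPM in the hypothalamic area to 56.3 CPM in the layer 6 area, a 2.88-fold span. Striatal spots held 172, 110, 161 and 135 CPM, which was 1.26 to 1.47 times all other spots and so above them in 4 of 4 sets without reaching 1.5-fold. White matter had the next lowest median, 67.6 CPM, and lay below layer 6 in set 1 (69.8 against 73.6 CPM). The layer 6 area held 73.6, 42.6, 60.7 and 52.0 CPM, at ratios of 0.53, 0.47, 0.41 and 0.47 to all other spots. Ranges over the sets overlapped between every pair of neighbours in the order of areas, so that order is not resolved step by step.

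Gabra3 encodes the alpha subunit typical of monoaminergic nuclei, the thalamic reticular nucleus and deep cortex. It was the member with the lowest counts, found in 30.6% to 64.1% of spots. Striatal spots held only 9.42, 4.25, 7.87 and 5.69 CPM, at ratios of 0.23, 0.23, 0.27 and 0.33 to all other spots. Layer 5 spots held 46.8, 20.6 and 32.6 CPM in sets 1 to 3, and hypothalamic spots 46.5, 19.7, 42.1 and 21.1 CPM. All striatal values thus lay below all values of these areas. The layer 5, hypothalamic, thalamic, layer 6 and claustrum-piriform areas had medians within 28.1 to 32.6 CPM and overlapping ranges. Gabra3 was also lower in white matter, at 7.03 to 9.46 CPM, and in choroid plexus spots, at 4.03, 3.45 and 5.60 CPM in sets 1 to 3 (32, 4 and 34 counts). Choroid plexus spots of set 4 gave no count of it among 850100, which at a floor of 3 counts allows up to 3.53 CPM. The exact 95% interval of that level reaches 4.34 CPM.

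Gabra4 encodes the alpha subunit that joins the delta subunit in extrasynaptic receptors. The thalamic area was highest, at 382 CPM in set 1 and 499 CPM in set 4, ratios of 2.60 and 2.77 to all other spots. The striatal area followed at 290, 372, 268 and 319 CPM, ratios of 2.21, 2.55, 2.43 and 1.62. Upper cortical spots came next at 208, 241, 190 and 213 CPM. The thalamic range lay above the striatal range, and the striatal range above the upper cortical one. The upper cortical range overlapped that of choroid plexus spots, next in the order. Hypothalamic spots held 55.7, 55.0, 52.9 and 74.9 CPM, and basal forebrain spots 34.3, 74.1, 39.0 and 59.5 CPM. Set directly against the striatal area, hypothalamic spots were lower in 2 of 7 members, against 8.56% of all genes: Gabra4, at 0.15 to 0.23 times the striatal level, and Gabrd, at 0.02 to 0.03 times. They were higher in Gabra3 and Gabrb1, 2 of 7 against 12.4%. Basal forebrain spots were lower than striatal spots in the same 2 of 7, against 8.53% of all genes, with Gabra4 at 0.12 to 0.20 times and Gabrd at 0.03 to 0.09 times, and higher in Gabra3 and Gabrb2, 2 of 7 against 11.6%. When clustering was finer (resolution 1.2), 107 spots of set 3 were named thalamic, against 2 in the main grouping. Over all sets, 106 of the thalamic spots had been unnamed. The ratios of the sets then ran from 0.32 to 2.77 for Gabra4, 0.47 to 1.81 for Gabra5 and 1.29 to 1.89 for Gabrb1. No thalamic call was kept.

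Gabra5 encodes the alpha subunit of extrasynaptic receptors of cortex and hippocampus. Layer 6 spots held 127, 85.4, 126 and 74.7 CPM, ratios of 1.80, 1.73, 1.99 and 1.51 to all other spots. Thalamic spots held 134 and 79.9 CPM in sets 1 and 4, and layer 5 spots 113, 80.8 and 104 CPM in sets 1 to 3, at ratios of 1.51, 1.62 and 1.52. The claustrum-piriform area stood at 128, 74.5, 110 and 85.1 CPM, and these 4 areas had overlapping ranges. Claustrum-piriform ratios were 1.40 to 1.69, and only set 2 kept this area from being called. It was called higher without set 2 (1.54 to 1.69), at resolution 1.2 (2.10 to 2.52) and under TMM scaling (1.58 to 1.93). Upper cortex was much lower, at 46.3, 30.2, 41.5 and 48.8 CPM, below every one of the 4 deep or thalamic areas in every shared set. Striatal spots held 52.3, 28.8, 39.4 and 42.0 CPM. Without set 4 the striatal area would have been called lower, at 0.45 to 0.61 of all other spots, and the upper cortical area likewise, at 0.52 to 0.57. With set 4 kept, the striatal area was also called lower at resolutions 0.4 and 1.2, without centring, by marker score and at a minimum of 2000 counts. The upper cortical area was also called lower at resolution 1.2. The layer 5 call was lost without centring (1.17 to 1.32) and with spots assigned by marker score (1.43 to 1.67).

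Gabrb1 encodes a beta subunit, and beta subunits form part of the GABA binding site. It was higher in the hypothalamic area, at 138, 85.8, 137 and 111 CPM (ratios of 1.76, 1.66, 1.99 and 1.75), and in the thalamic area, at 150 and 108 CPM in sets 1 and 4 (1.89 and 1.73). The ranges of these areas overlapped each other. Striatal spots held 64.5, 42.5, 59.5 and 51.7 CPM, and the hypothalamic level was 2.02 to 2.30 times as high in every set. White matter spots held 52.2, 35.8, 54.6 and 47.1 CPM, and choroid plexus spots 42.8, 42.3, 47.4 and 23.5 CPM. Without set 2, Gabrb1 would have been called lower in choroid plexus spots, at ratios of 0.34 to 0.63. Gabra4 and Gabrb1 neighbour each other on chromosome 5 and are read in opposite directions, yet the hypothalamic area was low in Gabra4 and high in Gabrb1 in 4 of 4 sets.

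Gabrb2 encodes the beta subunit of the most abundant synaptic receptors of the adult brain. Upper cortical spots held 266, 193, 235 and 184 CPM, thalamic spots 219 and 186 CPM in sets 1 and 4, and basal forebrain spots 241, 192, 191 and 182 CPM. These 3 areas had overlapping ranges. The upper cortical area was just under the threshold in set 4 alone and would have been called higher without it, at ratios of 1.60 to 1.80. With set 4 kept, it was also called higher at resolutions 0.4 and 1.2, by marker score, at a minimum of 2000 counts and under TMM scaling. Striatal spots held 111, 87.7, 107 and 95.3 CPM, and the upper cortical level was 1.93 to 2.40 times the striatal level in every set. Summed neuronal markers stood at 6981, 7997, 7522 and 8885 CPM in upper cortical spots and at 2747, 3318, 2924 and 3657 CPM in striatal spots, and their part in this contrast was not tested. This contrast had 2 of 7 members higher in upper cortex, Gabra3 and Gabrb2, against 8.45% of all genes, and none lower, against 8.55%. Thalamic spots against striatal spots had 4 of 7 higher, against 12.7% of all genes: Gabra3 (4.26 and 2.99 times), Gabra5 (2.57 and 1.90), Gabrb1 (2.33 and 2.10) and Gabrb2 (1.98 and 1.95). None was lower there, against 11.8%.

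Gabrd encodes the delta subunit, which marks extrasynaptic receptors. It showed the widest span of the members, 48.3-fold between the medians of the highest and the lowest area. The striatal area held 246, 171, 216 and 139 CPM, ratios of 3.01, 3.12, 2.86 and 2.21 to all other spots. Upper cortical spots held 193, 114, 160 and 97.7 CPM, lower than the striatal area in 4 of 4 sets although the ranges over sets overlapped. Thalamic spots held 142 and 119 CPM in sets 1 and 4. At the other end, hypothalamic spots held 6.28, 3.55, 4.47 and 2.52 CPM, from 116, 55, 58 and 24 counts. Basal forebrain spots held 8.33, 15.6, 11.8 and 6.45 CPM, and ventricle lining spots 7.95 and 4.98 CPM in sets 3 and 4, from 9 and 4 counts. White matter held 20.1, 14.5, 17.1 and 28.7 CPM and overlapped the basal forebrain area. In every set these 4 areas were below the others measured. Ratios to all other spots were 0.03 to 0.05 in the hypothalamic area and 0.07 to 0.18 in the basal forebrain area.

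**Figure D2:**
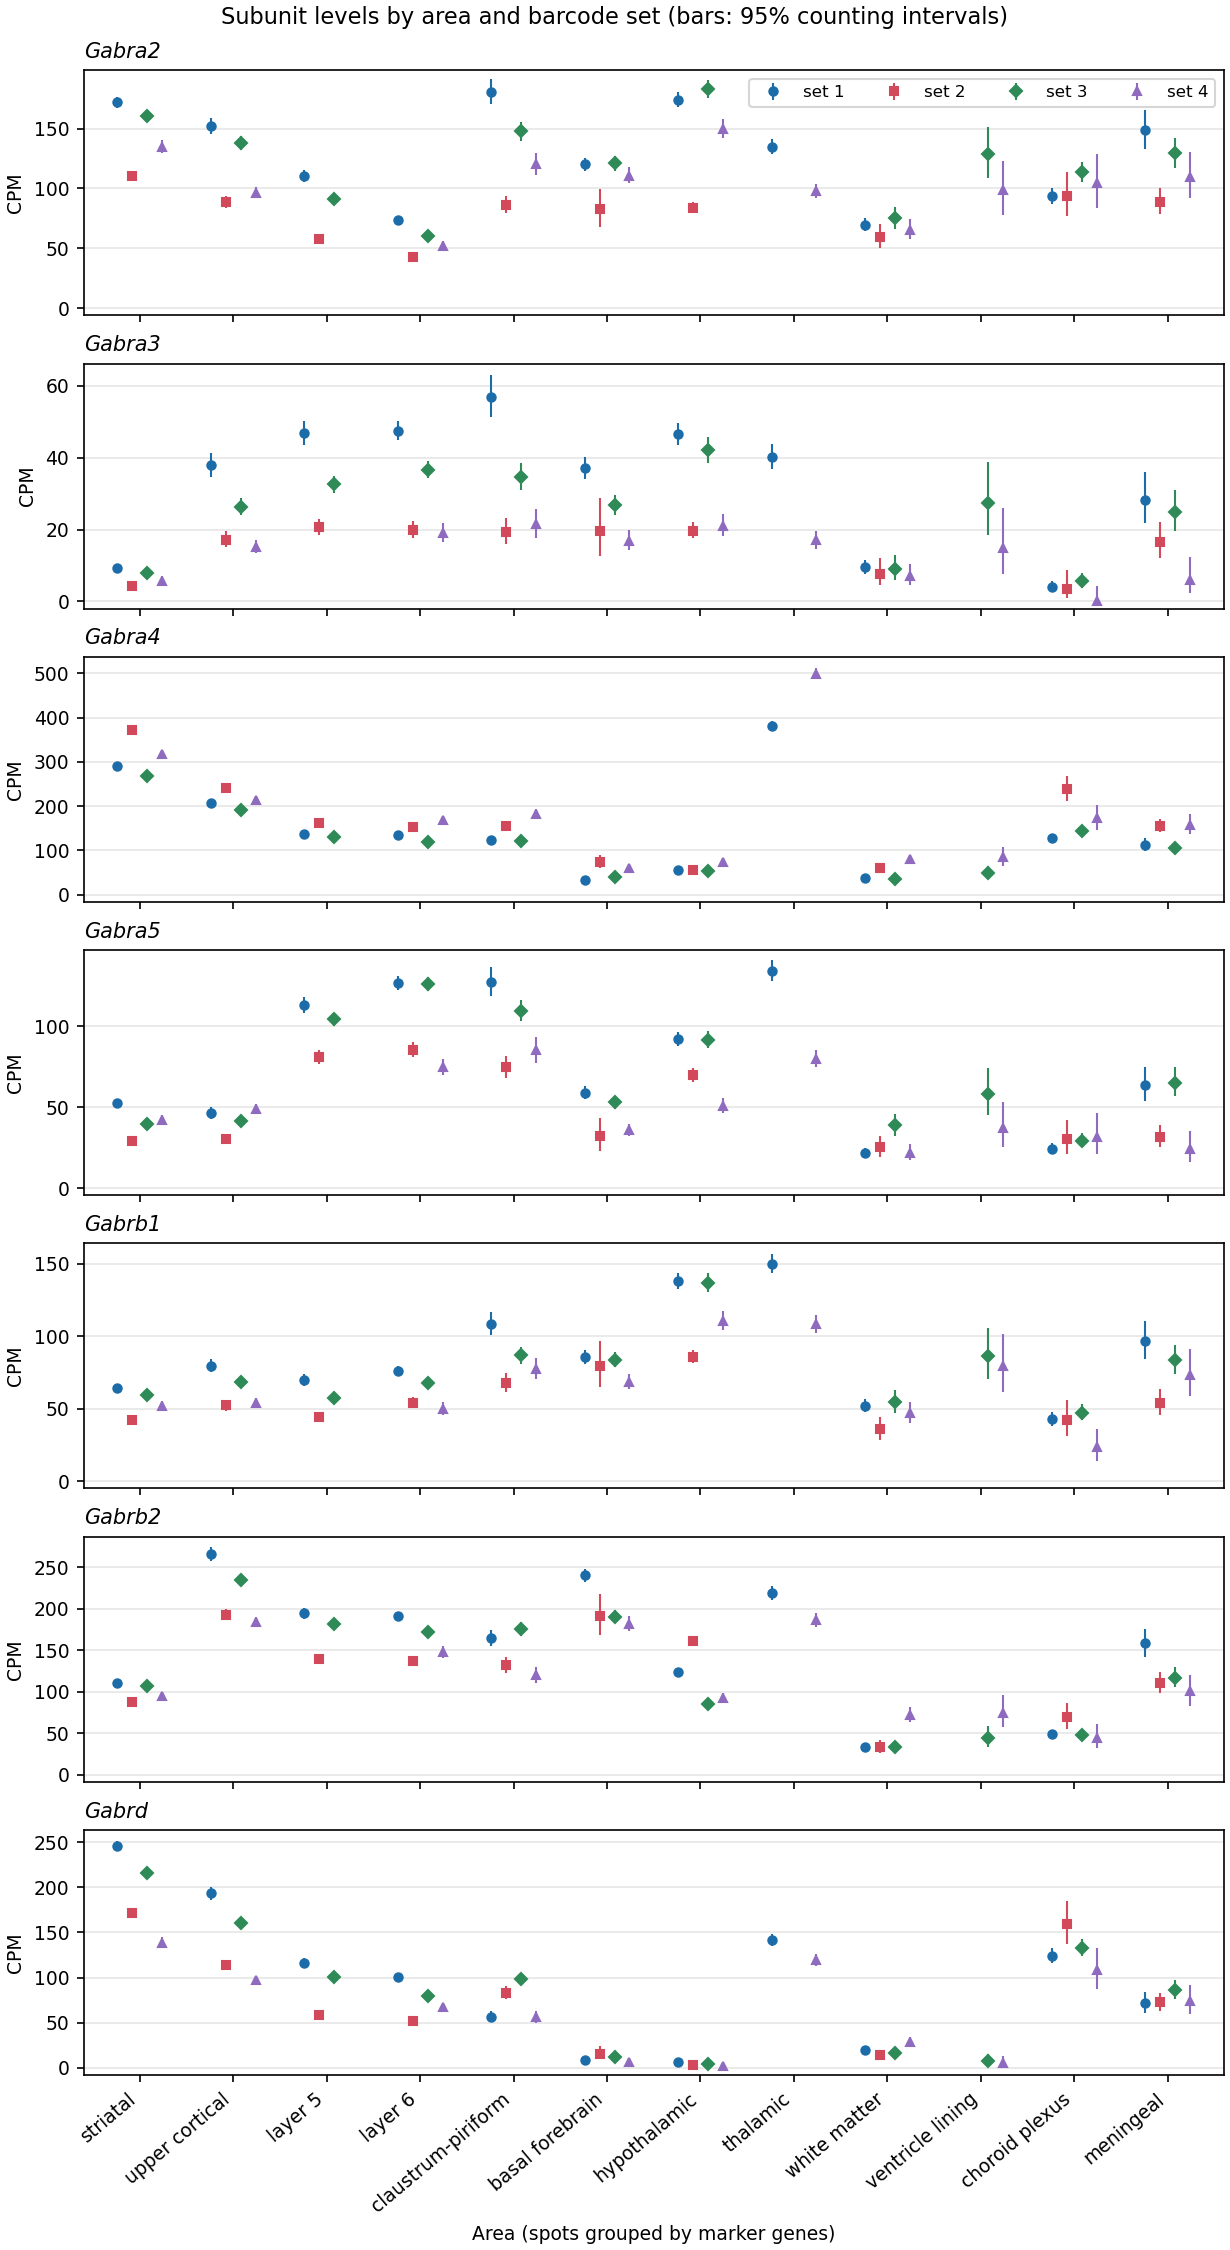
CPM of each subunit gene (y axis, linear, a separate scale for each gene) in 12 areas, with 1 point for each barcode set that had at least 30 spots and bars for exact 95% Poisson intervals of counting error. Gabrd falls from 139 to 246 CPM in the striatal area to 2.52 to 6.28 CPM in the hypothalamic area, Gabra4 peaks in the thalamic area at 382 and 499 CPM, and Gabra5 is higher in layer 5 and layer 6 than in upper cortex. Choroid plexus spots of set 2 lack the markers of that area.

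In white matter spots 5 of 7 members were lower (Gabra3, Gabra4, Gabra5, Gabrb2 and Gabrd), against 17.8% of all genes, and in ventricle lining spots 3 of 7 (Gabra4, Gabrb2 and Gabrd), against 12%. None was higher in either, against 10.7% and 11.5%. Gabra2 and Gabrb1 were called in neither. In white matter they were still below all other spots in 4 of 4 sets, at 0.52 to 0.70 and 0.60 to 0.73. Without set 2, Gabra2 would have been called lower there, at 0.52 to 0.62. In ventricle lining spots they were at 0.94 to 0.96 and 1.17. Summed neuronal markers (Snap25, Syt1, Rbfox3, Stmn2 and Syn1) stood at 974 to 2114 CPM in white matter and 1686 to 2026 CPM in ventricle lining spots, against 2747 to 3657 CPM in the striatal area. The oligodendrocyte list, 16 genes, summed to 78881 to 112380 CPM in white matter. The part of these in the calls was not tested. White matter calls depended on how spots were grouped: each of the 5 was lost under at least 1 alternative, for example Gabra4 with a ratio of up to 0.87 at resolution 0.4.

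Choroid plexus spots were lower in Gabra3, Gabra5 and Gabrb2, 3 of 7 against 9.19% of all genes, and none was higher, against 4.03%. Without set 2 the ratios of these 3 were 0 to 0.22, 0.30 to 0.60 and 0.30 to 0.32, and each was still called. Gabra4 and Gabrd were not called. Gabrd stood there at 124, 160, 133 and 108 CPM and Gabra4 at 128, 239, 144 and 173 CPM. The 19 striatal marker genes summed to 7269, 12121, 8812 and 9432 CPM in these spots, and to 17064, 19784, 18275 and 15038 CPM in striatal spots. In the upper cortical area the same list summed to 681 to 819 CPM. The part of striatal tissue in the Gabra4 and Gabrd levels was not tested. At resolution 1.2, 88 of the 255 spots of this area kept its name and the other 167 were named striatal. Sets 1 and 3 had enough of those 88 spots. There Gabra4 was at 0.27 to 0.32 and Gabrd at 0.25 to 0.27 of all other spots. Gabra2 was at 0.23 to 0.29 and Gabrb1 at 0.35 to 0.39. These genes were called lower too, so that every member was lower. The share of all genes lower at that resolution was not computed.

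Within the striatal area a cluster of 591 spots, led by Pdyn and Wfs1, differed from the other striatal clusters in its subunits. Pdyn encodes prodynorphin and Wfs1 wolframin, and both genes are used as markers of ventral striatum. The next leading genes were Otof, Nts and Crh. Of the 10 leading genes only Pdyn was on the striatal list. Wfs1, Otof and Nts were on the hippocampal, upper cortical and hypothalamic lists. The leading genes therefore do not settle where in or beside the striatum this cluster lies. Gabra3 stood at 25.9, 10.4, 29.1 and 12.2 CPM in this cluster, against 6.82, 2.78, 5.09 and 3.05 CPM in the other striatal clusters, ratios of 3.80, 3.72, 5.71 and 4.00. Gabra5 stood at 135, 51.3, 92.5 and 81.9 CPM, ratios of 3.46, 2.19, 2.85 and 3.18. These 2 of 7 members were higher, against 6.46% of all genes, and none was lower, against 2.12%. Gabra4 went the other way in 4 of 4 sets, at ratios of 0.57, 0.68, 0.48 and 0.50, where 0.68 in set 2 kept it from being called. Gabrd was at ratios of 0.36, 0.28 and 0.21 in sets 1, 3 and 4, but at 0.83 in set 2, where this cluster held 147 CPM against 97.2, 67.0 and 37.6 CPM in the others. Gabra2 was nearly even, at 1.02 to 1.17. The cluster had 7 of 19 striatal markers up at least 1.5-fold, fewer than the 16 to 19 of the other striatal clusters.

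Cortical depth separated alpha subunits. From the upper cortical to the layer 6 area Gabra5 was 2.73, 2.82, 3.04 and 1.53 times as high, the 1 of 7 members higher against 3.97% of all genes, and Gabra2 was at 0.48, 0.48, 0.44 and 0.54, the 1 lower against 3.24%. Gabrd was at 0.52, 0.45, 0.49 and 0.69, and set 4 kept it from being called. The layer 5 area already showed the step in Gabra5, at 2.44, 2.67 and 2.51 times the upper cortical level in sets 1 to 3, 1 of 7 higher against 2.67% of all genes. Gabrd was lower there, at 0.60, 0.52 and 0.63 times, 1 of 7 against 1.84%. Gabrb1 in the layer 6 area was at 0.93 to 1.03 times the upper cortical level. Most cortical spots of set 4 fell into 2 clusters led by Arc that held few spots of the other sets. The upper cortical one had Adra1d, a gene of the layer 5 list, among its 10 leading genes. Only 2 spots of set 4 were named layer 5, and whether its upper cortical spots hold part of layer 5 was not tested. A layer 6 cluster led by Ccn2 and Cplx3, markers of layer 6b, held 189, 99.0, 190 and 101 CPM of Gabra5, which was 1.28 to 1.80 times the other layer 6 clusters, and 0.50 to 0.69 times their Gabra3. No member was called there, against 3.76% of all genes higher and 1.51% lower.

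**Figure D3:**
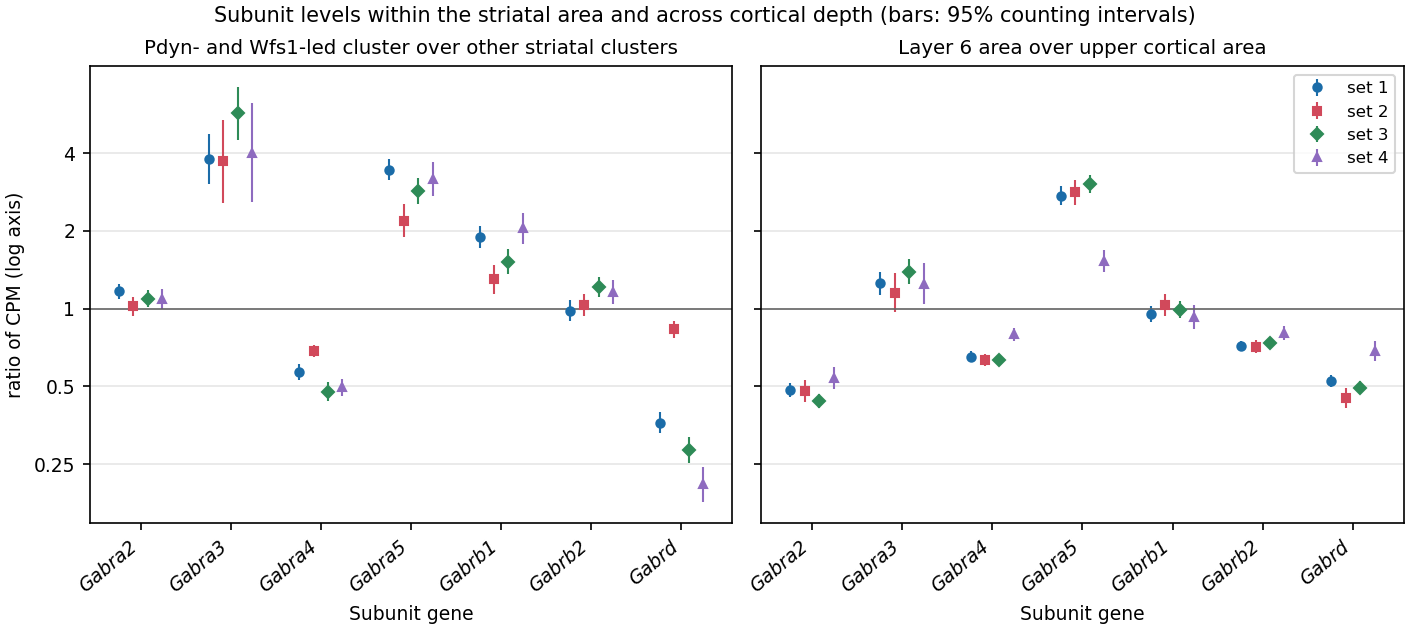
Ratio of CPM (log axis) for the 7 subunit genes between the striatal cluster led by Pdyn and Wfs1 and the other striatal clusters (left), and between the layer 6 and the upper cortical area (right), by barcode set, with exact 95% intervals of counting error. Gabra3 and Gabra5 lie above 2 in every set on the left, and on the right Gabra5 lies above 1.5 and Gabra2 below 0.55 in every set.

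Smaller groups of spots had patterns of their own. An unnamed cluster of 152 spots in sets 1 and 4, led by Pvalb, Six3 and Lancl3, differed from the thalamic area in all 7 members: Gabra3 was higher at 2.46 and 2.07 times, 1 of 7 against 7.16% of all genes, and the 6 others were lower, against 9.1%. Gabra5 had the lowest ratios there, 0.16 and 0.13. A second unnamed cluster, of 428 spots mostly in sets 2 and 3, was led by Lbhd2, Ctxn3 and Prkcd. Septal markers scored highest in it, but another list had 3 of its 10 leading genes and the septal list 1. It held 130 and 281 CPM of Gabra2 in sets 2 and 3, ratios of 1.58 and 2.27 to all other spots, the 1 member higher against 4.64% of all genes, and was lower in Gabra4 and Gabrd, 2 of 7 against 7.23%, with Gabrd at 12.2 and 15.1 CPM, ratios of 0.14 and 0.13. In the basal forebrain the cluster led by Lhx8 held 15.3, 25.4 and 12.7 CPM of Gabrd in sets 1, 3 and 4, which was 5.48, 4.93 and 4.48 times the cluster led by Tac2 and Pmch, the 1 of 7 members higher against 2.15% of all genes, with none lower, against 3.91%.

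Ratios between subunits, taken as summed counts of one gene over those of another, were compared between areas for 7 pairs of members. Areas were called apart when a ratio differed at least 2-fold the same way in every shared set, with at least 2 such sets. Of 441 comparisons, 63 for each ratio, 163 were apart. Gabrd to Gabrb2 separated most, 39 of 63, and Gabrb1 to Gabrb2 fewest, 5 of 63. The other 5 ratios were apart in 22 to 26 of 63. The share of comparisons apart for pairs of other genes was not computed. These counts, here and under the alternatives further on, are therefore not read as particular to the subunits.

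Gabrd to Gabra4 was alike between the striatal area (0.85, 0.46, 0.81 and 0.44) and the upper cortical area (0.93, 0.47, 0.84 and 0.46). The striatal value was 0.91 to 0.97 times the upper cortical one in every set, while both were higher in sets 1 and 3 than in sets 2 and 4. Against the hypothalamic area (0.11, 0.06, 0.08 and 0.03) the striatal value was 7.11 to 12.9 times as high, and against the basal forebrain area 2.18 to 4.02 times. Both genes were low in those areas, but Gabrd more so. Thalamic spots, high in Gabra4, had 0.37 and 0.24 in sets 1 and 4, and the striatal value was 2.28 and 1.82 times as high, short of the 2-fold rule in set 4.

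Gabrd to Gabrb2 was 2.22, 1.95, 2.03 and 1.46 in the striatal area and 0.73, 0.59, 0.68 and 0.53 in upper cortex, 2.74 to 3.31 times apart. Choroid plexus spots resembled striatal spots in this ratio, at 2.54, 2.28, 2.80 and 2.42. Gabra5 to Gabra2 rose from 0.30, 0.34, 0.30 and 0.51 in upper cortex to 1.02, 1.40 and 1.15 in layer 5 (sets 1 to 3) and 1.72, 2.01, 2.08 and 1.44 in layer 6. In the striatal area it was 0.30, 0.26, 0.25 and 0.31, which is 0.12 to 0.22 times the layer 6 value. Gabra3 to Gabra2 was 0.05, 0.04, 0.05 and 0.04 in the striatal area, 0.20 to 0.27 times the upper cortical and 0.08 to 0.12 times the layer 6 value. For Gabra5 to Gabra2 the striatal area was apart from the layer 5, layer 6, claustrum-piriform and thalamic areas, and not from the other 7. Gabrb1 to Gabrb2 was 0.58, 0.48, 0.56 and 0.54 in the striatal area and 0.30, 0.27, 0.29 and 0.29 in upper cortex, a ratio of 1.79 to 1.94 that is the same way in every set but under 2-fold. The hypothalamic values ran from 0.53 in set 2 to 1.61 in set 3, and set 2, whose hypothalamic spots came largely from a cluster of its own, kept that area from being called apart from upper cortex.

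**Figure D4:**
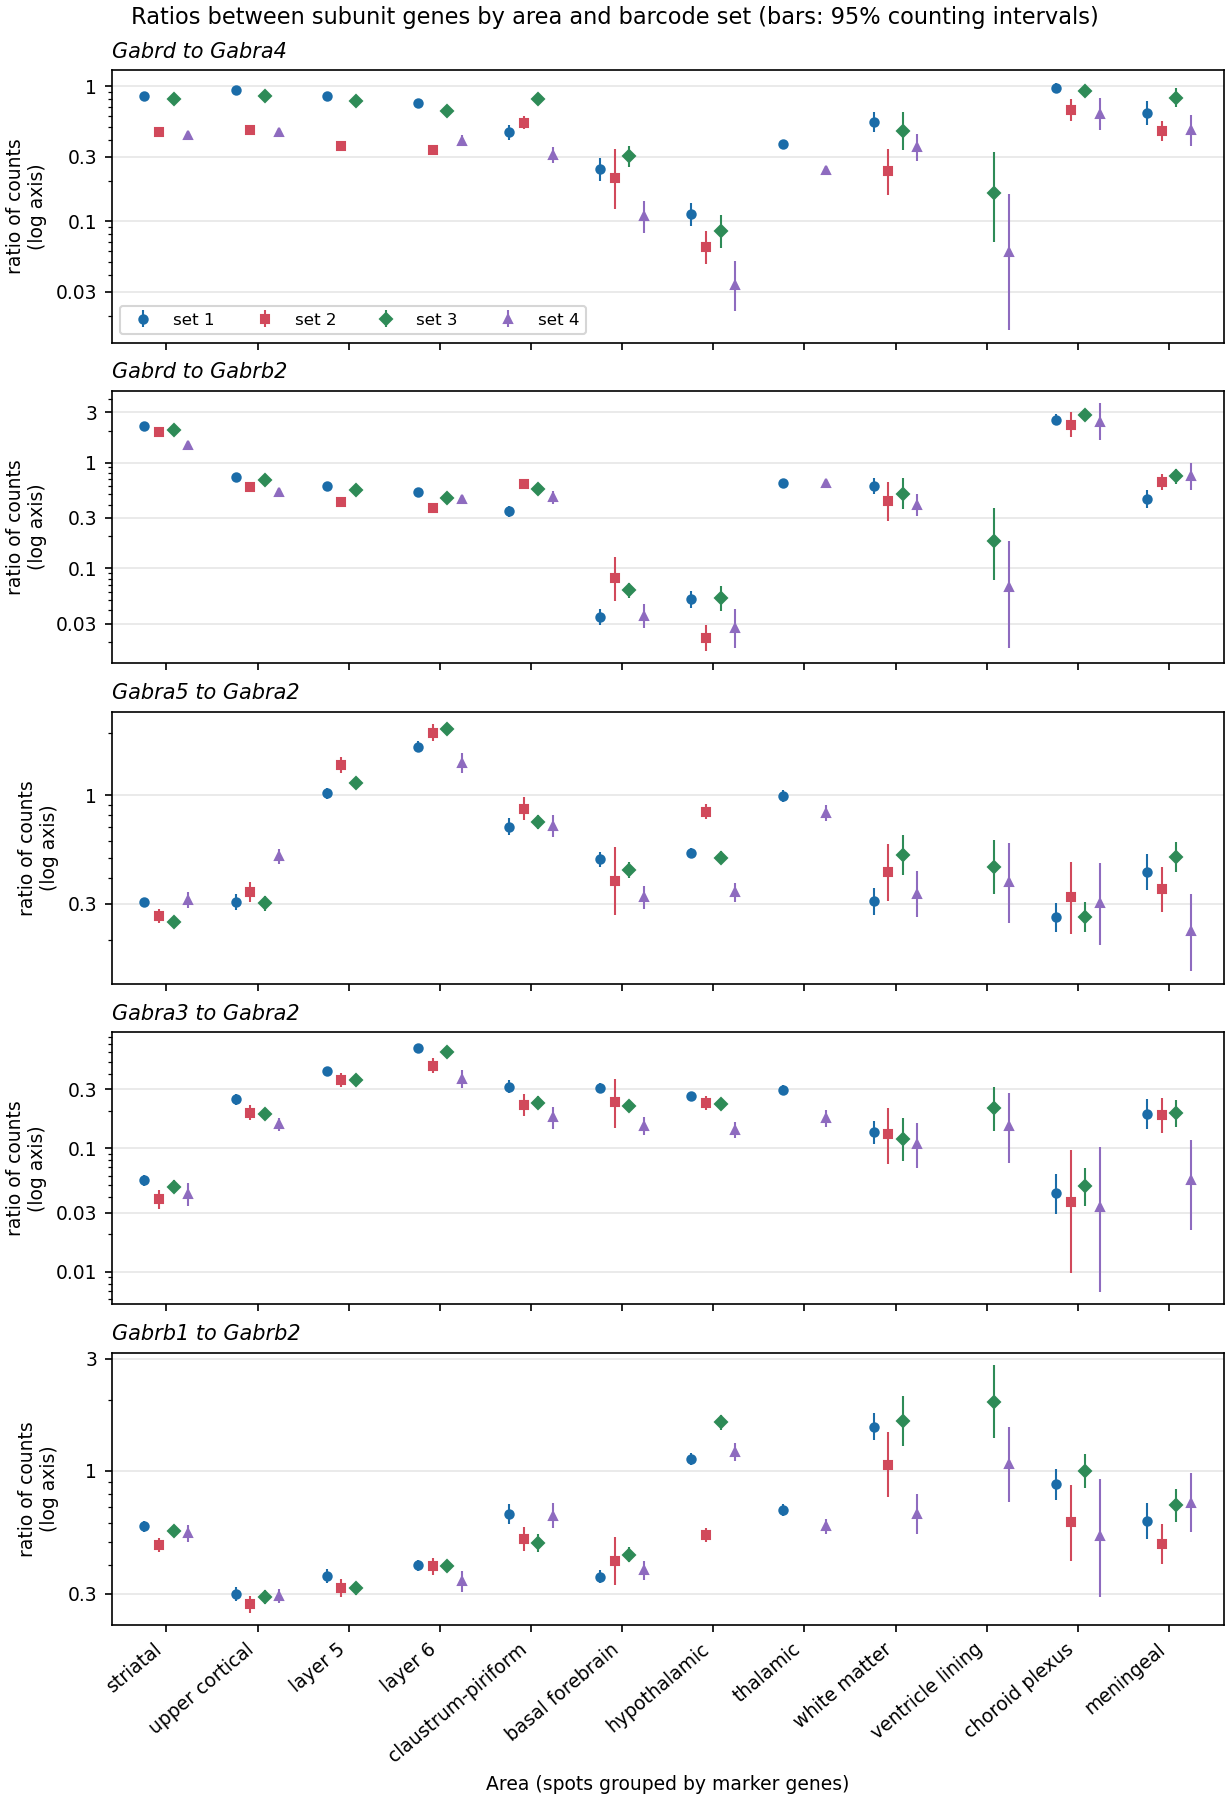
Ratio of summed counts for 5 pairs of subunit genes (log axis) in 12 areas, with 1 point for each barcode set and exact 95% intervals of counting error (Gabra3 in choroid plexus spots of set 4, with 0 counts, enters at the floor of 3). Gabrd to Gabrb2 is at 1.46 to 2.22 in the striatal area and at 0.02 to 0.08 in the hypothalamic and basal forebrain areas, and Gabra5 to Gabra2 steps up from upper cortex to layer 6.

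Differences between the sets were as large as many of those between areas. Over whole sections Gabra2 stood at 129, 84.5, 135 and 104 CPM, Gabra3 at 34.1, 14.8, 24.6 and 15.3 CPM, and Gabrd at 115, 86.1, 108 and 76.2 CPM. Highest over lowest set was at least 1.5-fold for these 3 of 7 members, against 40.4% of all genes. Gabra4 stood at 164, 207, 146 and 218 CPM, a span of 1.49-fold, and was higher in sets 2 and 4 than in sets 1 and 3, where these 3 genes were lower in sets 2 and 4. For Gabra5 (78.7, 54.3, 73.4 and 52.5 CPM) and Gabrb1 (84.7, 56.6, 74.1 and 68.1 CPM) the span was just under that threshold, and for Gabrb2 (157, 130, 145 and 139 CPM) it was 1.21-fold.

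The order of the sets inside areas was in part that of the whole sections. In the striatal area 5 of 7 members were at least 1.5-fold apart between sets, against 42% of all genes, and over the 12 areas 56 of 84 pairs were apart. The share of all genes ranged from 27.6% in the thalamic area, with 2 of 7 members, to 67% in choroid plexus spots, with 4 of 7, and to 45.5% with 2 of 7 there without set 2. It was 5 of 7 against 45% in upper cortex, 4 against 33.8% in layer 5, 5 against 41.3% in layer 6, 5 against 47.7% in claustrum-piriform, 4 against 49% in basal forebrain and 6 against 47.6% in hypothalamic spots. White matter had 5 against 55.6%, ventricle lining 5 against 35.8% and meningeal spots 6 against 56.6%. Among the 9 areas measured in 4 sets, Gabra4 was highest in set 4 in 5 and in set 2 in 4. Gabra2 was lowest in set 2 in 8 but highest in set 1 in 5 and in set 3 in 4. Gabra3 was highest in set 1 in 8, and lowest in set 4 in 6 and in set 2 in 3. Gabrd was lowest in set 4 in 6, in set 2 in 2 and in set 1 in 1. Its highest set varied more, being set 1 in 4, set 2 in 2, set 3 in 2 and set 4 in 1. Over all areas, 45.7% of pairs of a gene and an area were apart. Without set 2 this was 35.5%, and 35 of the 84 pairs of members were apart. Summed neuronal markers over whole sections were 4331, 5560, 4868 and 5786 CPM and oligodendrocyte markers 19386, 10194, 10126 and 14097 CPM. Genotype, depth, plane of section and the make-up of the spots cannot be told apart among these sets.

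The members' levels can be set beside each other over the 43 values of an area in a set, on the scale of log2(CPM + 1). These values share sections and depths, so a correlation is a description. Gabra4 and Gabrd were most alike, with Pearson's r = 0.83 over all 43 values and 0.85 to 0.95 within each set. Gabra3 followed Gabrb1 (r = 0.77) and Gabra5 (r = 0.75). Lowest was Gabrb1 with Gabrd, at r = -0.36, and Gabra4 with its neighbour Gabrb1 was at r = -0.18. By the same measure, among 10131 genes with GABA-A subunit genes left out, the genes most like Gabrd were Npas2, Itpr1, Epha4, Rasgrp1 and Lmo7 (r = 0.90 to 0.86). For Gabra4 they were Arl15, Atxn1, Rnf112, Camkv and Kctd17 (0.87 to 0.86), and for Gabra2 Dpp6, Cntnap5b, Epha6, Lhfpl4 and Grm7 (0.77 to 0.73). Gabra3 was most like Dnajc6, Astn2, Ehd3, Zfp9 and Map2k4 (0.92 to 0.89), and Gabra5 most like Xkr4, Smap1, Synj1, Pclo and Atp6v0c (0.88 to 0.85). For Gabrb1 the list was Dner, Cds2, Ptpa, Ddx25 and Camk2d (0.89 to 0.84), and for Gabrb2 Nat8l, Nefl, Sult4a1 and Rell2 (0.93 to 0.91).

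A list of 30 genes of the inhibitory synapse places the subunits among their partners. Of these, 29 matched by name and 28 passed the CPM minimum. In the striatal area 5 of 28 were higher, against 5.38% of all genes, among them Insyn1, whose product binds the scaffold protein gephyrin (2.17 to 2.44), Shisa7, an auxiliary subunit (1.81 to 2.37), Gad1, which makes GABA (1.54 to 1.67), and Slc32a1, which loads it into vesicles (1.73 to 2.16). Against 9.45% of all genes, 3 of 28 were lower: Iqsec3, the astrocytic GABA transporter gene Slc6a11 (0.27 to 0.30) and the GABA-B receptor gene Gabbr2 (0.27 to 0.32). The list's median log2 ratio there was 0.03, that of the 7 members -0.48 and that of all genes -0.06.

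The genes that make and load GABA were low in the thalamic area. Gad1 stood at 6.08 to 11.5 CPM and Slc32a1 at 5.08 to 5.49 CPM there, ratios of 0.05 to 0.10 and 0.07 to 0.08. Gad2, the other GABA-making enzyme gene, stood at 63.1 to 77.4 CPM, ratios of 0.14 to 0.17. Of 28 genes 3 were higher, against 5.39% of all genes, and 7 lower, against 9.87%. The 7 members had a median log2 ratio of 0.56, against -0.12 for the list and -0.01 for all genes. Hypothalamic spots were higher in Gad2 (1.99 to 2.61), Slc32a1 (1.70 to 1.98) and Slc6a11 (2.38 to 6.86), 3 of 28 against 5.63% of all genes, with Insyn1 lower, 1 of 28 against 6.89%. Medians there were 0.30 for the members, 0.14 for the list and 0.07 for all genes. In basal forebrain spots 7 of 28 were higher, among them Gad2 and Abat, against 3.49% of all genes, and 2 lower, against 6.7%. White matter had 11 of 28 lower, against 17.8% of all genes, and 4 higher, against 10.7%, including Slc12a2, a chloride importer, at 4.56 to 5.90, whereas Slc12a5, the neuronal chloride exporter, was lower, at 0.18 to 0.41. Of 6 other GABA-A subunit genes above the minimum, those called in the striatal area were 3, all lower, against the 9.45% of all genes given above. In white matter 4 were lower (17.8% of all genes), in choroid plexus spots 3 (9.19%), in layer 5 and layer 6 spots 2 each (7.3% and 6.9%), and in claustrum-piriform, thalamic and meningeal spots 1 each (6.35%, 9.87% and 3.58%). Upper cortical spots had 1 higher (3.71%) and 2 lower (7.94%), and ventricle lining spots 2 higher (11.5%) and 1 lower (12%). Hypothalamic and basal forebrain spots had 2 higher each (5.63% and 3.49%) and none lower.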

How the data were processed

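The authors deposited 1 table of raw counts per gene and spot, made by Visium CytAssist for FFPE tissue per the labels' protocols. Space Ranger and Seurat are named in the submitters' processing notes, and the genome build and probe set are not given in the sources used here. Members and gene lists were chosen with earlier results of these data known, and the contrasts between clusters after levels were seen.

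Spots with at least 500 counts were clustered with 2000 variable genes, without GABA-A subunit, Celsr, inhibitory synapse or sex-linked genes, centred within sets, on 30 principal components and 15 neighbours with Leiden at resolution 0.8 (scanpy 1.11.5, leidenalg 0.10.2). A cluster took the marker list with the highest mean log2 fold, at least 0.3, with at least 3 markers up 1.5-fold and at least 1 among its 20 leading genes, unless another list had more among the first 10. Doublet calling does not apply to spots. Levels are summed counts per 1000000. Intervals are exact Poisson for levels and conditional binomial for ratios (scipy 1.17.1). A genotype test needs the sample of each set and was not run. The named genes are the members, the 5 genes most like each, and the inhibitory synapse list. Some genes that this rule names are not reported here. The call rule was run on simulated data for the striatal area, in which all areas of a set shared the same profile with small random noise and Poisson counts. Of 200 genes changed 2-fold among 10144, 95.0% were recovered at the 1.5-fold threshold, with 0 false calls. Real areas differ in many genes and their spots mix cells, so this checks the code and does not measure false calls in the data. Alternatives were resolutions 0.4 and 1.2, no centring, spots assigned by marker score, a minimum of 2000 counts, TMM scaling (edgeR 4.0.16), each set left out and other fold thresholds.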

Additional observations from a re-analysis of the deposited data

Results flagged for a closer look

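Among 70 groups of 4 sets (a member in an area or the whole section), 4 had a set whose gap to the others was large for the range of the group, and chance gives about 1 in 20. Gabra4 in the hypothalamic area was at 74.9 CPM in set 4 and at 52.9 to 55.7 CPM in the others. Gabrb2 in the basal forebrain area was at 241 CPM in set 1 and at 182 to 192 CPM in the others. Gabrb2 in white matter was at 72.0 CPM in set 4 and at 33.6 to 33.8 CPM in the others, and the summed neuronal markers there were also highest in set 4, at 2114 CPM against 974 to 1469 CPM. Gabrb2 in choroid plexus spots was at 69.9 CPM in set 2, where those spots lack choroid plexus markers (307 CPM), and at 44.7 to 48.9 CPM in the others.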

How the results depend on the processing

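Of the 25 called pairs, 11 were called the same way under each of the 12 alternatives other than the 2-fold threshold: Gabra3, Gabra4 and Gabrd in the striatal area, Gabra4, Gabrb1 and Gabrd in the hypothalamic area, Gabra2 and Gabra5 in layer 6, and Gabra3, Gabra5 and Gabrb2 in choroid plexus spots. The other 14 were lost under at least 1 grouping of spots, or because it held no ventricle lining area, and none was called the other way. The runs that left out a set could not lose a call, because a call needs the fold in every measured set. Those that left a cluster out of its area could change calls only in the striatal or basal forebrain area. Loss of calls elsewhere was thus tested only by resolutions 0.4 and 1.2, no centring, marker score, a higher minimum of counts and TMM scaling. Pairs called lower numbered 11 at resolution 0.4, and those called higher 13 under TMM scaling. At 2-fold, 2 pairs were higher, 10 lower and 18 apart between sets. Leaving out each set gave 8 to 9 pairs higher, 18 to 19 lower, 168 to 195 ratio comparisons apart and 35 to 46 pairs apart between sets. Under these alternatives the share of all genes was computed only for pairs apart without set 2, 35 of 84 against 35.5%. The other counts are therefore not read as particular to the subunits. Spots assigned by marker score took the area of their cluster in 68.5% of spots. Choroid plexus levels of Gabra4 and Gabrd fell to 0.25 to 0.32 of all other spots at resolution 1.2. Those of Gabra2 and Gabrb1 fell to 0.23 to 0.39. Counts under 10, as for Gabrd in ventricle lining spots, limit those ratios. The clusters left out of their areas were chosen after seeing the data. No paired analysis was possible because names of spots give neither a replicate number nor a mouse.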
